A study of Rattus norvegicus with 44 samples.

Results

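AMH, the anti-Müllerian hormone, was compared with no treatment in whole neonatal rat ovaries kept in organ culture. All members of the comparison were chosen by their labels, 3 samples treated with AMH and 14 untreated controls, which make 17 of the 44 samples of the series. Each sample was RNA from ovaries of 4-day-old female Sprague-Dawley rats, cultured whole for 2 days (48 h), and the treated wells received 50 ng/ml of human AMH. A sample was the 2 or 3 ovaries of a well, pooled, each from another pup of the litter. A day of culture held untreated ovaries and 1 to 3 of the growth factors, but the labels do not say which samples shared a day, so day and treatment cannot be told apart here. The other 21 arrays of the same set, 3 each with LIF, KITLG, GDNF, PDGFab, BMP4, FGF2 and FGF7 at the same dose, entered the fit and are used below only to show where AMH differs.

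AMH is a ligand of the TGFβ superfamily that growing follicles secrete from their granulosa cells. It binds its own type II receptor, Amhr2, which recruits the type I receptors Acvr1, Bmpr1a or Bmpr1b, and these phosphorylate the receptor SMADs that are shared with the BMPs. In the ovary it is known for holding primordial follicles in their resting state, and in the male fetus for the regression of the Müllerian duct, the tube whose epithelium gives rise to the oviduct and uterus.

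Every array measured 27342 probe sets, and values are log2 expression levels, so that a difference of 1 is a doubling. Array medians lay between 5.93 and 6.01, and correlations between arrays over all probe sets between 0.964 and 0.997. Transcripts of the expected ovarian cells were present in AMH-treated ovaries at levels well above the array median. The zona pellucida gene Zp3 of oocytes stood at 11.18, 11.79 and 11.48, the oocyte growth factor Gdf9 at 10.72, 10.13 and 10.39, the germ cell helicase Ddx4 at 8.35, 8.73 and 8.48, Wt1 of somatic cells at 9.82, 10.19 and 9.96, and the collagen Col1a1 of stroma at 11.82, 12.02 and 11.85. The groups overlapped for each of these 5 genes, and their differences from control lay between -0.17 and 0.56.

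The largest differences between AMH-treated and control ovaries were above control, led by Mmp7 at 2.82, Gabrp at 2.06 and Plet1 at 2.02. None passed an adjusted p of 0.05 in limma, the test across all probe sets and all 38 arrays: 0 of 27342 did (0%), while 1388 had an unadjusted p under 0.05 (5.08%). The words higher and lower are therefore used below for what was measured, with each gene's adjusted p or the count that it belongs to. The study criteria were applied with limma's unadjusted p, up to 0.05, and asked in addition that linear group means differ by 10 or more, with AMH over control not between 0.83 and 1.2. They were met by 588 probe sets (2.15%), of which 388 were higher (1.42%) and 200 lower (0.731%). Of the higher ones 241 carried 1 gene symbol and 15 differed by more than 1 log2 unit, whereas 0 of the lower ones differed by as much. The split moved with single samples: it was 347 higher and 328 lower without AMH sample 2, 654 and 518 without AMH sample 3, 333 and 152 without AMH sample 1, and 471 and 379 without control 2. In the study's own AMH list, made with its t-test, most probe sets were lower, so the balance of directions here is not that of the study. The reason was not tested. RNA came from whole ovaries, so for every result below more cells of a type and more RNA per cell cannot be told apart. AMH sample 1 lay furthest from the controls among the 3 for 170 of the 388 higher and 123 of the 200 lower probe sets.

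Start regions of 3 of the 12 genes with the largest differences above control are shown first, because the comparison turns on these genes, with that of Id1, a known target of BMP SMADs, beside them. RefSeq (build GRCr8) gives a start region for 8 of the 12. Each sequence runs 5′ to 3′ on the strand of the gene, from 250 bases before the start to 50 after it. Capitals mark TATAAA (the TATA box), TGACTCA (bound by AP-1), CTTTGA (bound by TCF and LEF), GGAAGT (bound by ETS factors), AGGTCA (the half-site of nuclear receptors), AGTTCA (a half-site of the vitamin D receptor) and GGCGCC (bound by SMADs), searched on both strands. The regions lie at chr8:13132793-13133092, plus strand for Mmp7, at chr8:59738389-59738688, plus strand for Plet1, at chr5:134888681-134888980, minus strand for Tspan1 and at chr3:161671314-161671613, plus strand for Id1.
Mmp7: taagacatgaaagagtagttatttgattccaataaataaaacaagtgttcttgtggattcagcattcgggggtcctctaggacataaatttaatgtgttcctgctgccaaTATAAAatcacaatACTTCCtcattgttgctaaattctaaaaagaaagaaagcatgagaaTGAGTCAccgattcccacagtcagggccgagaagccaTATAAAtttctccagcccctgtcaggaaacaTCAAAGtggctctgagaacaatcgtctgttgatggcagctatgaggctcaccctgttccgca
Plet1: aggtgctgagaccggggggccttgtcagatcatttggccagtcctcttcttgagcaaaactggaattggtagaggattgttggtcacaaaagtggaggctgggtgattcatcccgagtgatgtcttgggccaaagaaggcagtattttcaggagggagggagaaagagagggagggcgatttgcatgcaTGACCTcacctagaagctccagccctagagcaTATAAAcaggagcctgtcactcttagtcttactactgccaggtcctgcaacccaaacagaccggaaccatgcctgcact
Tspan1: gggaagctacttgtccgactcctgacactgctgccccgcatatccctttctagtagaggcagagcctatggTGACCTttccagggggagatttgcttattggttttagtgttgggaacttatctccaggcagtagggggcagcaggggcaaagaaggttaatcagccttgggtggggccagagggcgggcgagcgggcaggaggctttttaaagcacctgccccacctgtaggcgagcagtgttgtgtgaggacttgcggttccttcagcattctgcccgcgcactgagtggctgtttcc
Id1: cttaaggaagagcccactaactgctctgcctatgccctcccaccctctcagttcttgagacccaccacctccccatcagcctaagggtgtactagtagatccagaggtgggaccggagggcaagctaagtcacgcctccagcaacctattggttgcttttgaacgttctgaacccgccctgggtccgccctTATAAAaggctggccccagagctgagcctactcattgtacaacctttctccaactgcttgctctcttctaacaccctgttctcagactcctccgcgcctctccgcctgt

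In Mmp7 the letters TATAAA stand 140 and 43 bases before the start, and TGACTCA, on the other strand, 80 bases before it. CTTTGA, also on the other strand, lies 12 bases before the start and GGAAGT 126. Plet1 holds TATAAA 29 bases and AGGTCA 61 bases before its start, Tspan1 holds AGGTCA 179 bases before, and Id1 holds TATAAA 59 bases before. Of the 8 genes, 3 hold AGGTCA (Plet1, Scgb1c1 and Tspan1), 2 hold TATAAA, 2 hold CTTTGA, 1 holds TGACTCA, 1 holds GGAAGT, and 0 hold AGTTCA or GGCGCC. Over all 33469 regions of 300 bases the shares are 16.2% for AGGTCA, 14.2% for TATAAA, 16.1% for CTTTGA, 4.63% for TGACTCA, 22.6% for GGAAGT, 14.5% for AGTTCA and 11% for GGCGCC. These matches describe the letters and name no bound factor.

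Mmp7, a secreted matrix metalloproteinase of glandular epithelium, gave the largest difference. It stood at 8.54, 8.32 and 7.74 in the AMH samples and between 4.29 and 7.34 in the controls, with a median of 5.22. No control reached the lowest of the 3 AMH samples. The difference was 2.82 (SE 0.65), a ratio of linear means of 5.86, with an adjusted p of 0.31 in limma and the smallest p that 680 splits allow in the exact two-sided permutation test (p = 0.00147). Mmp7 was picked as the largest difference on these same arrays. In the permutation test all the leading genes above control had a p under 0.05. For several genes named below that met the study criteria it was above 0.05: 0.0794 for Lhx9, 0.0838 for Sycp1, 0.103 for Igfbp2, 0.0956 for Rab6b and 0.0603 for Bmp2.

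Cell surface proteins of epithelium made up several of the next genes. Gabrp, the pi subunit of the GABA-A receptor, stood at 10.09, 9.71 and 8.69 with AMH against 5.43 to 9.11 in controls (median 7.66). Plet1, a surface protein of placental and duct epithelium, stood at 9.11, 8.76 and 8.80 against 5.15 to 8.97 (median 6.67). Both groups overlapped, with 2 controls above the lowest AMH sample for Gabrp and 1 for Plet1, and the differences were 2.06 (SE 0.69, adjusted p = 0.822 in limma) and 2.02 (SE 0.70, adjusted p = 0.859). Tspan1, a tetraspanin, stood at 6.51, 6.28 and 5.87 against 4.57 to 5.66 (median 5.02), with no overlap and a difference of 1.21 (SE 0.28, adjusted p = 0.294 in limma).

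Cdh6, a cadherin of the developing kidney, and Aqp8, a water channel, also stood above all controls in the 3 AMH samples. Cdh6 was at 7.40, 6.77 and 6.68 against 4.81 to 6.19 (median 5.61), a difference of 1.37 (SE 0.29, adjusted p = 0.236 in limma). Aqp8 was at 8.57, 8.29 and 8.76 against 6.84 to 7.78 (median 7.33), a difference of 1.2 (SE 0.40, adjusted p = 0.782). The claudin Cldn4, a tight junction protein, was uneven among the AMH samples, at 8.21, 6.28 and 5.82 against 5.21 to 5.89 in controls (median 5.67). A single array was far above the rest and the lowest AMH sample lay within the control range. Its difference was 1.15 (SE 0.24, adjusted p = 0.236 in limma), and with AMH sample 3 left out it was 1.63 with an adjusted p of 0.00378. That fit drops the lowest AMH array and keeps the one at 8.21.

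Elf3, an ETS transcription factor of epithelial cells, was the only transcription factor among the 12 largest differences above control. It stood at 5.91, 5.80 and 5.12 against 3.97 to 5.05 (median 4.31), with no AMH array inside the control range, and differed by 1.27 (SE 0.26, adjusted p = 0.236 in limma). The secretoglobin Scgb1c1 was at 6.66, 8.47 and 6.90 against 4.5 to 7.98 (median 5.43), and Ceacam4, of the carcinoembryonic antigen family, at 6.28, 7.40 and 5.20 against 4.34 to 6.02 (median 4.99). For these 2 genes AMH sample 2 was the highest and the groups overlapped, with differences of 1.71 (SE 0.60) and 1.26 (SE 0.38).

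Vitamin D and calcium genes gave S100g and Cyp24a1. S100g, the calcium-binding protein calbindin-D9k, stood at 9.46, 8.34 and 9.47 with AMH against 6.0 to 8.40 in controls (median 7.13), a difference of 1.87 (SE 0.59, adjusted p = 0.777 in limma). Cyp24a1, the hydroxylase that inactivates vitamin D, stood at 5.12, 6.39 and 7.11 against 4.19 to 5.33 (median 4.57), a difference of 1.63 (SE 0.38, adjusted p = 0.31). In both the lowest AMH sample lay within the control range, below 1 control. These were the only 2 of 12 measured members of the vitamin D and calcium transport list to meet the study criteria. Both had been picked as leading genes on the same arrays, so the count is no independent evidence. Over all 14324 genes 1.6% were higher at the criteria, and the median of the list was -0.04. The receptor Vdr stood at 4.53, 4.73 and 4.04 against a control median of 4.46, and the calcium channel Trpv6 and the calbindin Calb1 differed by -0.13 and -0.04.

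**Figure D1:**
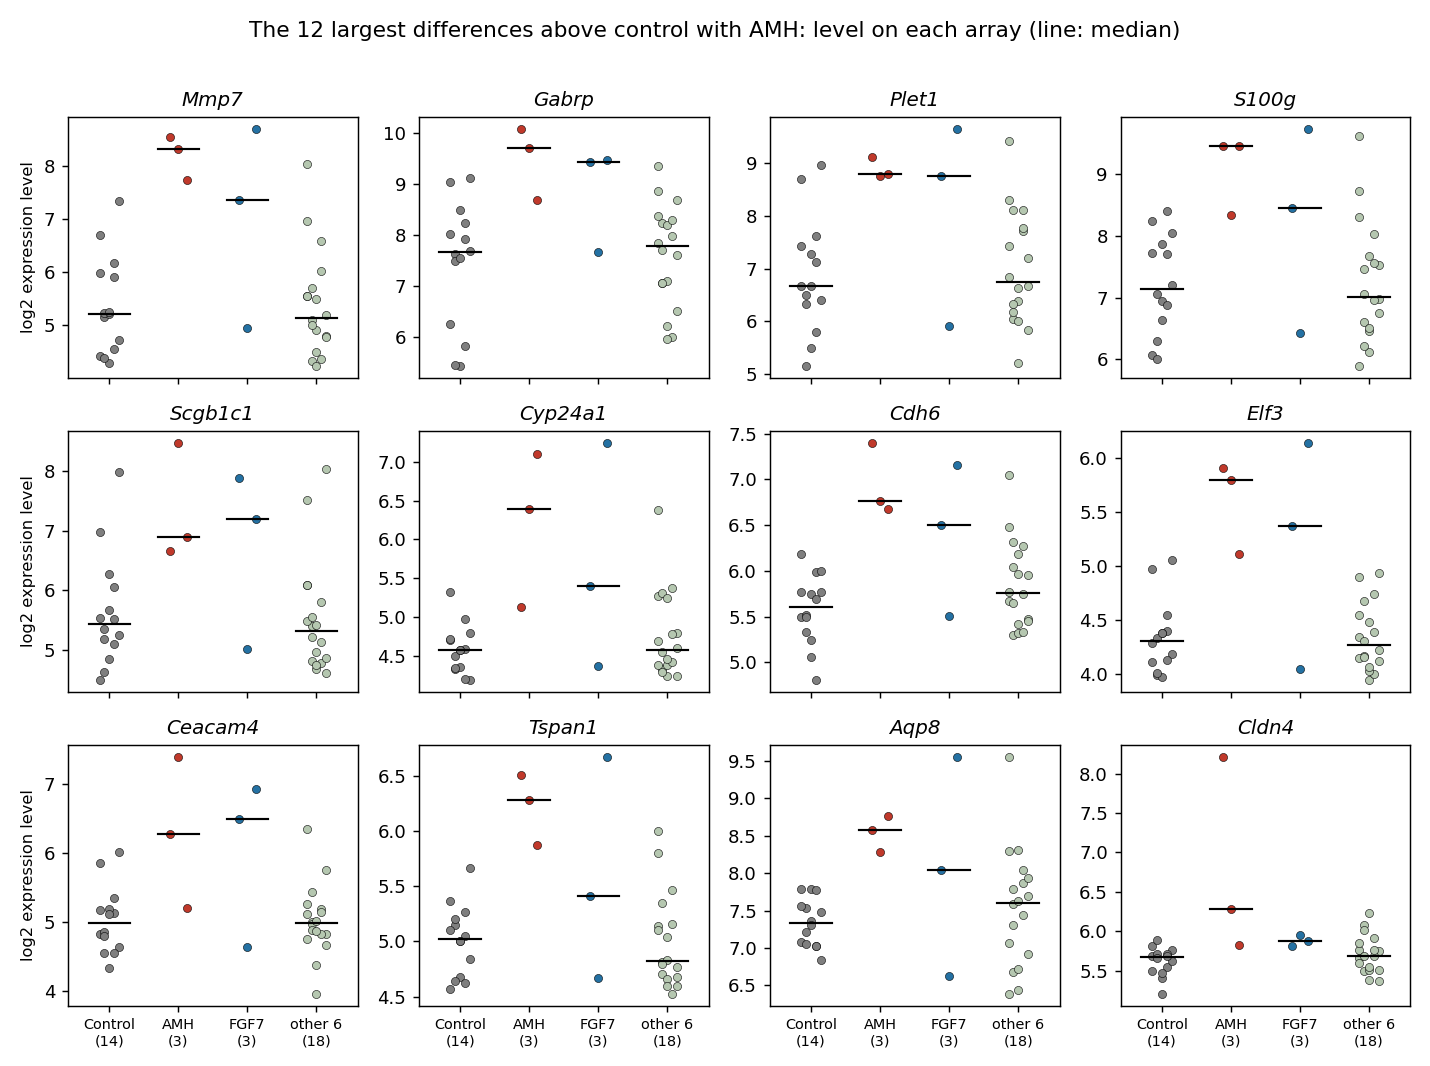
Log2 expression level (vertical axis, its range set for each gene) of the 12 genes with the largest difference above control, each point an array and each line the median of its group, for 14 controls, 3 AMH, 3 FGF7 and 18 arrays of the other 6 growth factors. Mmp7, Cdh6, Elf3, Tspan1 and Aqp8 have all 3 AMH points above every control, and Cldn4 has a single AMH point, at 8.21, far above the others.

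Some of these genes varied widely among untreated ovaries too. The SD over the 14 controls was 1.24 for Gabrp, 1.10 for Plet1, 0.94 for Scgb1c1, 0.93 for Mmp7 and 0.80 for S100g, against a median of 0.20 and a 95th percentile of 0.45 over all probe sets. It was 0.18 for Cldn4 and between 0.31 and 0.38 for Cyp24a1, Aqp8, Tspan1, Elf3 and Cdh6. Control 10 was the highest control for 7 of the 12 genes and control 11 for 3. Without these 2 controls, an alternative chosen after seeing the data, 810 probe sets met the study criteria and 0 passed the adjusted threshold.

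When AMH and control arrays were fitted alone, so that the spread came from these 17 arrays, 10 probe sets passed an adjusted p of 0.05 in limma (0.0366%), all of them higher with AMH. They were Elf3, Cdh6, Upp1, Padi2, Tspan1, Cyp24a1, Tmprss2 and Aqp8 (adjusted p = 0.0351 each), Slc16a14 (adjusted p = 0.045) and 1 probe set with no symbol, and Mmp7 had an adjusted p of 0.0565. Upp1, the uridine phosphorylase, stood at 6.94, 6.19 and 6.26 against 5.09 to 5.90 in controls. Padi2, an enzyme that turns arginine into citrulline, stood at 6.27, 6.56 and 6.24 against 5.30 to 6.08. Tmprss2, a membrane serine protease of epithelium, stood at 5.36, 5.10 and 5.0 against 4.17 to 4.67, and the transporter Slc16a14 at 5.88, 6.06 and 5.67 against 4.89 to 5.40. All 4 had every AMH sample above every control, a pattern that 37 probe sets showed in all (0.135%), and their differences were 0.92, 0.76, 0.67 and 0.65. Of the 680 splits of these arrays 1 puts the AMH samples on top, a share of 0.00147. The 0.135% is no larger than that share, which holds where AMH and control do not differ. Lack of overlap is therefore only a description, here and for the other genes, which were picked on the same arrays.

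The list of tubular and secretory epithelium holds transcription factors, junction proteins and secreted products of duct and gland cells. Of its 27 measured members 16 met the study criteria in the higher direction and 0 in the lower, beside 1.6% and 0.733% of all 14324 genes. The median member differed by 0.54, against -0.01 over all genes, and 24 of 27 lay above their control mean. The whole list was drawn up with results of these arrays known, so its counts are a description and no independent evidence of a direction. Mmp7, Gabrp, Plet1, Elf3, Tspan1 and Cldn4 had their own differences known by then, and the other 21 members, of which 10 were higher and 0 lower with a median of 0.33, were chosen with the same knowledge of the series. With AMH sample 1 left out the count fell from 16 to 10, and it lay between 12 and 17 without any other single sample and at 17 without controls 10 and 11.

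Transcription factors among them were Pax8 of Müllerian and renal epithelium, at 6.07, 6.20 and 6.24 against 4.97 to 6.24 (median 5.51), a difference of 0.59 (SE 0.22), Ehf at 0.77 (SE 0.26) and Sox17 at 0.54 (SE 0.23). Pax2, its relative, stood at 4.82, 4.56 and 4.57 against a control median of 4.6, a difference of 0.03 (SE 0.08). The membrane protease St14, matriptase, stood at 5.63, 5.66 and 5.08 against 4.04 to 5.33 (median 4.66), and its partner prostasin, Prss8, at 5.82, 5.35 and 4.97 against 4.15 to 5.24 (median 4.64). Their differences were 0.79 (SE 0.21) and 0.70 (SE 0.20), with adjusted p-values of 0.584 and 0.737 in limma. Epcam, the epithelial adhesion molecule, differed by 0.60 (SE 0.25), the secreted lipocalin Lcn2 by 0.74 (SE 0.35) and Prom1 by 0.37 (SE 0.17). The members that did not meet the criteria included Cdh1, E-cadherin (0.38), the splicing regulators Esrp1 (0.18) and Esrp2 (0.04), and the keratins Krt17 (0.05) and Krt23 (-0.06).

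**Figure D2:**
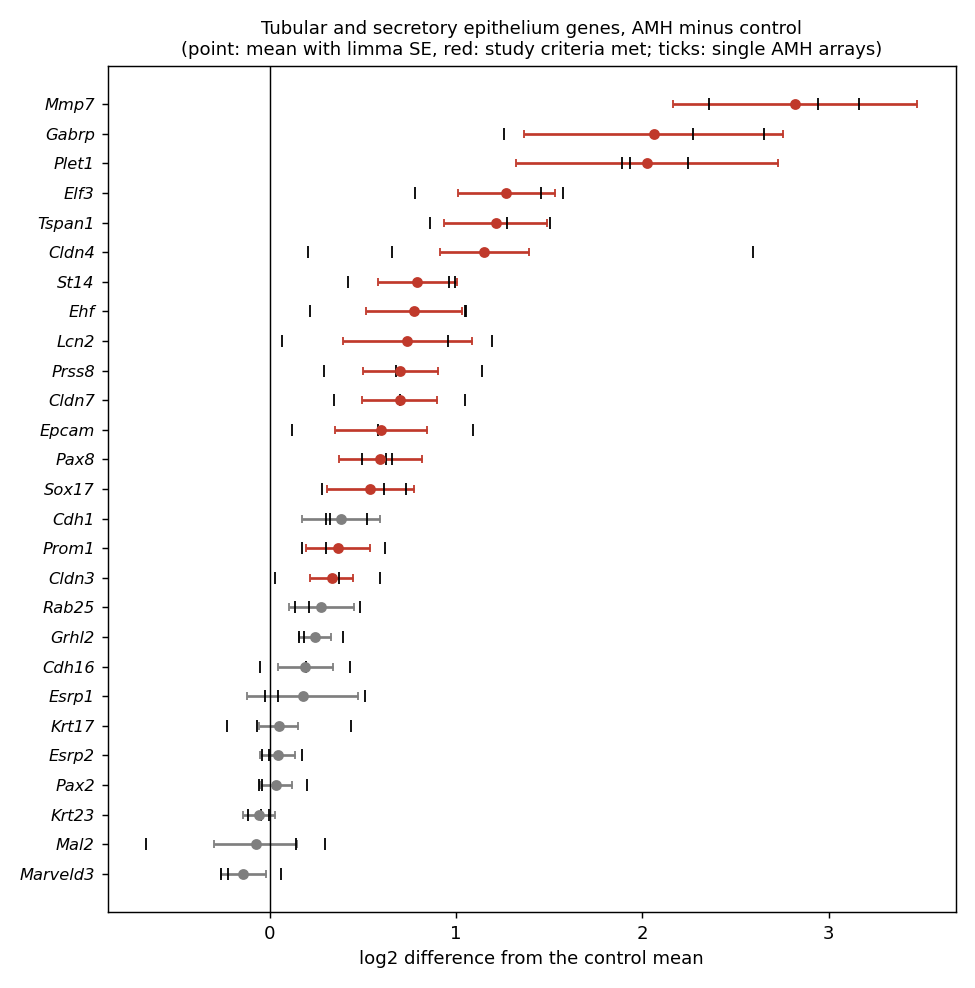
Log2 difference from the control mean (horizontal axis) for the 27 measured members of the tubular and secretory epithelium list, with points for the AMH mean, bars for limma's SE, black ticks for the 3 AMH arrays and red for the 16 genes that met the study criteria. Differences run from -0.14 for Marveld3 to 2.82 for Mmp7.

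The mean level of the 27 genes on an array was 6.78, 6.63 and 6.25 in the AMH samples, and ran from 5.55 to 6.34 in the controls with a median of 5.87. AMH samples 1 and 2 lay above every control, and AMH sample 3 lay below controls 10 and 11, at 6.3 and 6.34. FGF7 and PDGFab were the only other treatments with an array above AMH sample 3.

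Junction proteins were read from a list of cadherins and claudins that shares members with the epithelial list. Of its 23 measured members 5 were higher at the study criteria, Cdh6, Cldn4, Cldn7, Cldn6 and Cldn3, and 0 were lower. Over all 14324 genes 1.6% were higher and 0.733% lower, and the median of the list was 0.19. Cdh6 and Cldn4 are among the leading genes given above, and Cldn3, Cldn4 and Cldn7 are members of the epithelial list. The count therefore reuses the same values and is no independent evidence. Cldn7 stood at 5.18, 4.83 and 4.48 against 3.82 to 4.80 (median 4.08) and differed by 0.70 (SE 0.20). Cldn6 stood at 7.88, 7.00 and 7.00 against 5.97 to 7.13 (median 6.63) and differed by 0.67 (SE 0.22), while Cldn3 differed by 0.33 (SE 0.11). AMH sample 1 was the highest for each of these 3 claudins. Without it 2 of the 23 members met the criteria. The neural cadherin Cdh2 differed by -0.25 (SE 0.14). Among 12 genes of ciliated cells, which also line the oviduct, only Tppp3, a tubulin-binding protein, was higher (0.58, SE 0.20), and the median was 0.02.

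FGF7 was the treatment whose arrays came nearest to AMH for these genes. The highest of the 21 other treated arrays was an FGF7 array for 10 of the 12 leading genes, for Mmp7 at 8.70 and for Plet1 at 9.66. FGF7 samples did not stay together, however, and for Mmp7 they stood at 7.36, 4.94 and 8.70. For the epithelial list the mean level was 6.46, 5.80 and 6.64 with FGF7, so that AMH sample 1 alone was above the highest of these. Fitted against FGF7 directly, AMH was higher by 1.2 for Mmp7 (SE 0.84), by 0.78 for Plet1 (SE 0.90) and by 0.56 for Cdh6, and the median of the epithelial list was 0.18. In that contrast 0 probe sets passed an adjusted p of 0.05 in limma and 342 had an unadjusted p under 0.05 (1.25%). Against the mean of the other 7 growth factors, which leaves out the shared controls, AMH was higher by 2.58 for Mmp7 (SE 0.63, adjusted p = 0.848 in limma), by 1.15 for Elf3, by 1.14 for Tspan1 and by 1.02 for Cdh6. There 0 probe sets passed the adjusted threshold and 735 had an unadjusted p under 0.05 (2.69%), so no difference was shown to be particular to AMH.

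**Figure D3:**
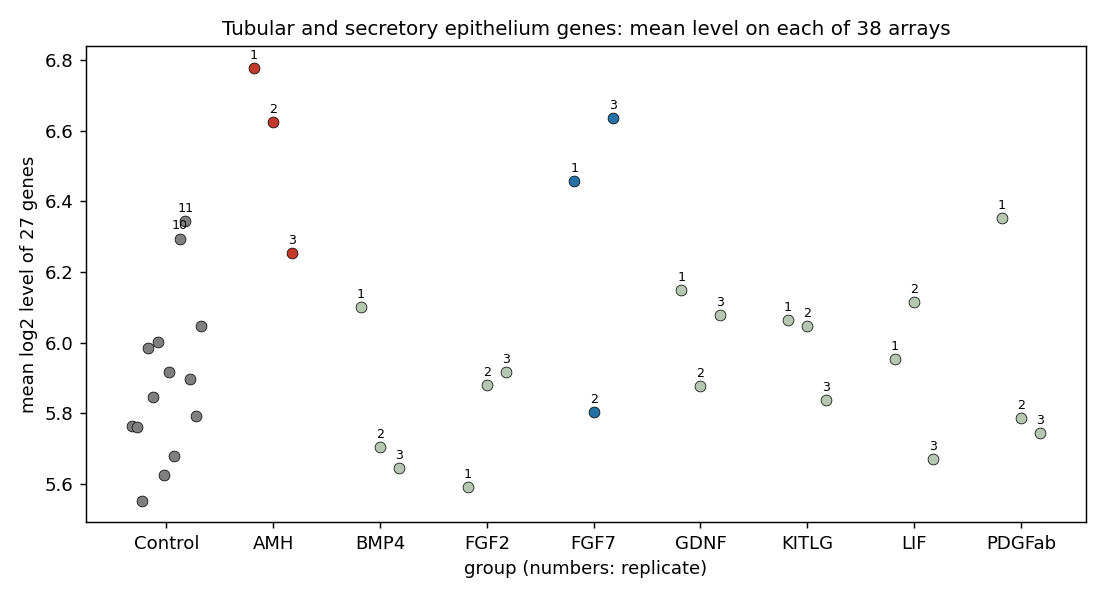
Mean log2 level of the 27 tubular and secretory epithelium genes (vertical axis) on each of the 38 arrays, by group, with the replicate numbers of the treated samples and of controls 10 and 11 beside their points. AMH samples 1 and 2, at 6.78 and 6.63, stand above all controls, FGF7 samples are spread from 5.80 to 6.64, and the controls run from 5.55 to 6.34.

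Transcripts of the AMH signalling pathway differed from control in both directions, from -0.32 for Bmp7 to 0.56 for Gdf9. Of 18 ligands, receptors and SMADs of the AMH and BMP pathway 1 was higher and 0 were lower at the study criteria. Over all 14324 genes the shares were 1.6% and 0.733%, and the median of the list was 0.01. The transcript of Amh stood at 5.34, 7.85 and 6.89 in AMH-treated ovaries and between 4.59 and 7.96 in controls (median 6.94). It varied widely in both groups, and the difference was -0.00 (SE 0.66), with a sign that turned under several alternatives. Amhr2, the receptor specific to AMH, was well expressed, at 9.04, 9.82 and 8.93 against 8.54 to 9.61 (median 9.27), and differed by 0.06 (SE 0.19). The type I receptors Acvr1 and Bmpr1a differed by -0.23 (SE 0.13) and 0.02 (SE 0.12), the type II receptor Bmpr2 by 0.01 (SE 0.16), and Smad1, Smad5 and Smad4 by -0.06, 0.08 and -0.04, with SEs between 0.09 and 0.10. The higher gene was the ligand Bmp2, at 5.86, 6.31 and 6.37 against 4.96 to 6.25 (median 5.78), a difference of 0.48 (SE 0.23, adjusted p = 0.982 in limma).

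Genes that SMADs of this pathway are known to switch on were read in the same way. Of 19 targets and feedback inhibitors 0 met the study criteria, and the median was -0.09. Over all 14324 genes 1.6% were higher and 0.733% lower, so a list of this size would hold few or none at that share. Id1, an inhibitor of basic helix-loop-helix factors and the gene shown above with its start region, stood at 9.56, 9.02 and 8.98 against 8.24 to 9.37 (median 9.16), so that AMH sample 1 alone was above the controls, and it differed by 0.17 (SE 0.17). Id2 differed by -0.16 (SE 0.12), Id3 by 0.27 (SE 0.19), Id4 by -0.11 (SE 0.16) and the inhibitory Smad6 by -0.16 (SE 0.33). BMP4 acts through the same SMADs, and its samples stood at 9.61, 9.66 and 9.61 for Id1 and at 9.08, 8.87 and 9.20 for Smad6, where the AMH samples stood at 8.42, 7.87 and 8.38. All 3 BMP4 samples were above every control for Id1, whereas for Smad6 they lay inside the control range of 6.79 to 9.26. AMH minus BMP4 was -0.44 for Id1 (SE 0.22), -0.21 for Id2 (SE 0.15), -0.31 for Id3 (SE 0.25), -0.03 for Id4 (SE 0.21) and -0.83 for Smad6 (SE 0.43), each with an unadjusted limma p above 0.05. In that contrast 0 probe sets passed the adjusted threshold in limma and 842 had an unadjusted p under 0.05 (3.08%).

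**Figure D4:**
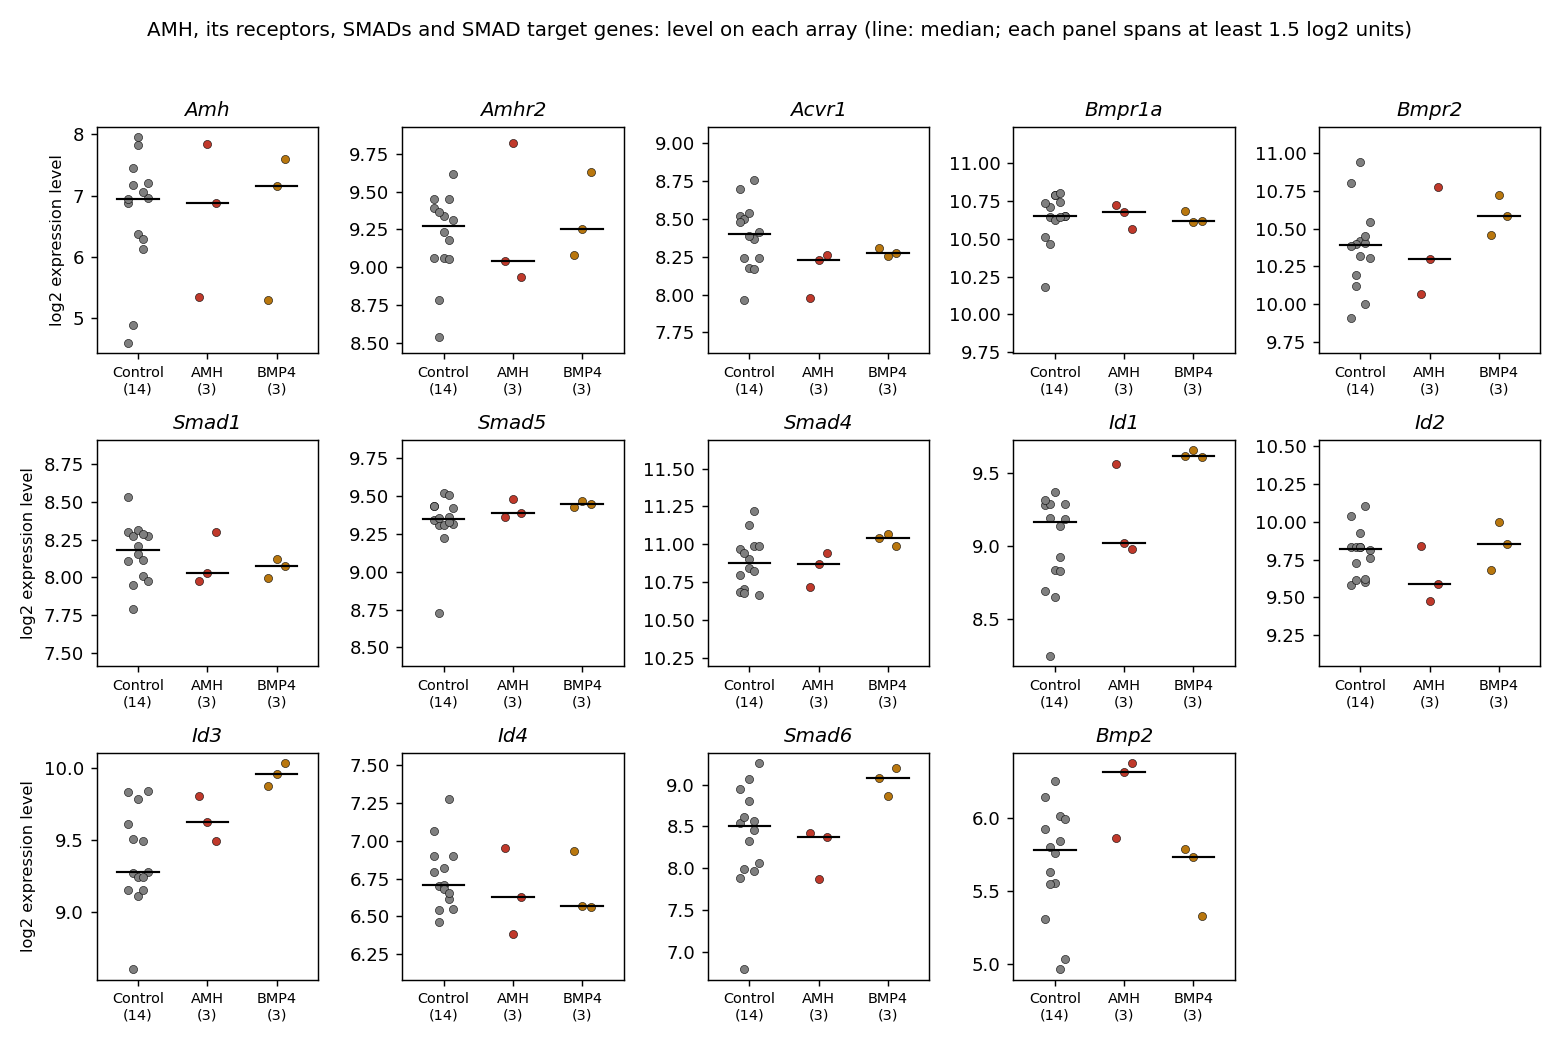
Log2 expression level (vertical axis, each panel at least 1.5 log2 units high) of Amh, its receptors, SMADs, the SMAD targets Id1 to Id4, Smad6 and Bmp2, with a point for each array and a line at the median, for 14 controls, 3 AMH and 3 BMP4 samples. AMH points lie within or near the control range in every panel, while the BMP4 points for Id1, between 9.61 and 9.66, lie above all controls.

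At the study criteria 1.6% of all 14324 genes were higher and 0.733% lower, so a list of 16 would hold few or none at that share. Oocyte genes did not meet the criteria in either direction, 0 of 16, although 12 lay above their control mean. The largest was Oas1d, at 8.35, 7.96 and 8.0 against 6.06 to 8.40, a difference of 0.62 (SE 0.40). Genes of the meiotic chromosome all lay below their control mean, 14 of 14, with a median of -0.20, while of all 14324 genes 6827 lay above it. Against the mean of the other growth factors the median of the meiotic list was -0.045. Sycp1, a protein of the synaptonemal complex, was the only member lower at the criteria, at 5.77, 6.13 and 5.93 against 5.58 to 7.24 (median 6.38), a difference of -0.45 (SE 0.20, adjusted p = 0.966 in limma). The groups overlapped for it, with 3 controls below the highest AMH sample.

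Pregranulosa cells, the somatic cells around a resting oocyte, gave 2 lower genes of 17, beside 0.733% of all 14324 genes. These were the homeobox factors Lhx9 and Irx3, and the median of the list was -0.18. Lhx9 stood at 7.79, 8.03 and 7.49 against 7.6 to 9.44 (median 8.25) and differed by -0.56 (SE 0.23). Irx3 stood at 7.42, 7.73 and 7.24 against 7.46 to 8.51 (median 7.78) and differed by -0.43 (SE 0.19). All AMH samples lay below the control median for both genes. The surface epithelium of the ovary, a different epithelium from that of the ducts, did not share the direction of the tubular list. Of its 14 measured genes, from 18 listed, 0 were higher and 1 was lower, the keratin Krt19. It stood at 10.89, 11.01 and 10.84 against a lowest control of 10.85 and a control median of 11.25, a difference of -0.43 (SE 0.18). Cdh3, Muc16, Lrrn4 and Upk3b were not matched in the annotation and are not counted. The study's own list, from these same arrays, gives Cdh3, Muc16 and Lrrn4 as lower with AMH. Of the measured members it gives Krt19, Podxl, Bnc1, Bnc2, Lama5 and Tmem151a as lower and Aldh1a1 as higher. The surface list was drawn up with earlier results known, so its direction and the contrast with the tubular list are no independent evidence. Its median was -0.205 against control, 0.05 against FGF7 and -0.01 against BMP4.

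Signals that are known to act on resting follicles were counted next. Over all 14324 genes 1.6% were higher and 0.733% lower at the study criteria. Of 24 growth factors and receptors 2 were higher, the insulin receptor Insr (0.37, SE 0.13, with 0.18 from a dimmer probe set that did not meet the criteria) and the PDGF receptor Pdgfra (0.28, SE 0.12), and 1 was lower, the ligand Pdgfa, at 6.72, 7.07 and 7.09 against 6.95 to 8.06 (median 7.27), a difference of -0.43 (SE 0.17). Kit and its ligand Kitlg, a pair that drives the growth of the oocyte, differed by 0.01 and -0.18. In the PI3K and FOXO list 0 of 13 genes met the criteria, and Foxo3, the factor that keeps oocytes at rest, differed by -0.18 (SE 0.15). Of 22 Wnt pathway genes 0 were higher and 2 were lower, both of them feedback inhibitors, the secreted Notum (-0.57, SE 0.22) and the ubiquitin ligase Rnf43 (-0.34, SE 0.14). Notum stood at 5.97, 6.31 and 5.99 in the AMH samples, against 6.0 to 7.22 in controls, so that samples 1 and 3 lay below the lowest control. For ERK feedback and axon guidance 0 of 20 genes each met the criteria. Steroid synthesis had 0 of 12, and its largest member was the luteinizing hormone receptor Lhcgr, at 0.65 (SE 0.49).

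Markers of other tissues were read in the same way. Stroma and matrix had 3 of 15 higher, beside 1.6% of all 14324 genes. They were Thy1 at 6.61, 6.91 and 6.50 against 5.53 to 6.45, the collagen Col1a2 (0.35, SE 0.16) and Pdgfra. Macrophage genes lay above their control mean in 14 of 14 cases, as did 6827 of all 14324 genes. Their median was 0.21 with 0 at the criteria, and the largest was Fcer1g (0.55, SE 0.30). The median of that list was 0.06 against the mean of the other growth factors and 0.01 against BMP4. Endothelium (9 genes), mast cells (9), smooth muscle (10), red blood cells (7), fat cells (7), nerve (8) and stress and low oxygen (16) had 0 genes at the criteria in either direction. Cell cycle genes had 1 of 21 lower, Rpa3, beside 0.733% of all 14324 genes. The 16 measured genes that the study tied to AMH in its own short list, which was chosen on these arrays and is no independent evidence of a direction, had 2 lower (Krt19 and Pdgfa) and a median of -0.23. The study gives all of these genes as lower with AMH, and the others did not meet the criteria here.

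**Figure D5:**
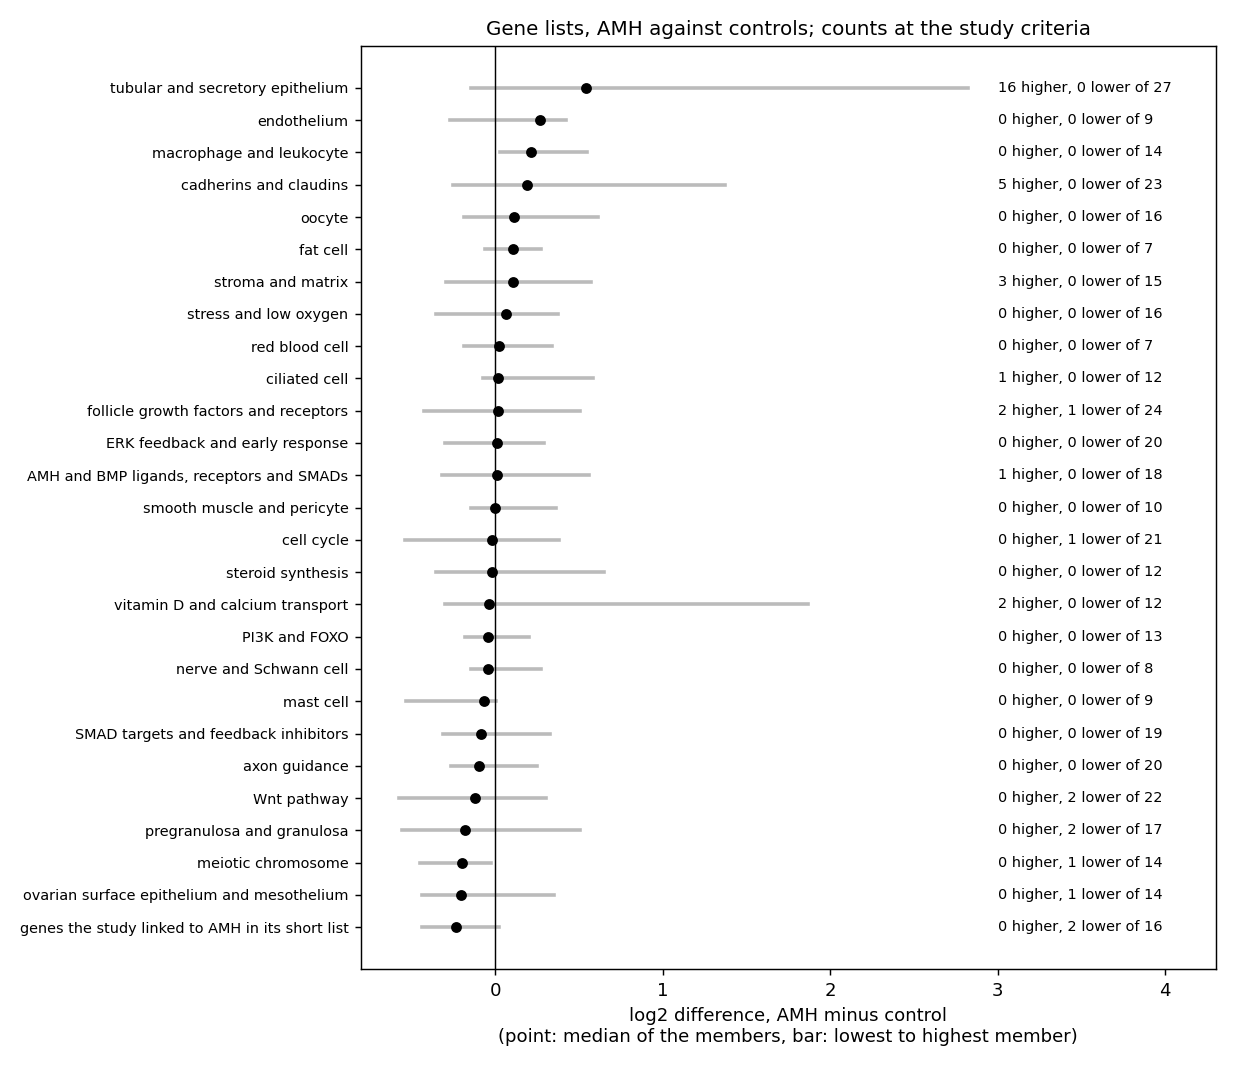
Log2 difference of AMH minus control (horizontal axis) for 27 gene lists, with the median of the measured members as a point, the lowest to highest member as a bar, and the number of members higher and lower at the study criteria at the right. The tubular and secretory epithelium list has the highest median, 0.54, and 16 of 27 members higher, and 3 other lists lie between 0.19 and 0.27.

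The largest differences below control were smaller than those above. Prkcb, a protein kinase C, stood at 6.40, 7.43 and 6.84 with AMH against 6.90 to 8.45 in controls (median 7.40), a difference of -0.68 (SE 0.26, adjusted p = 0.946 in limma). The groups overlapped, and AMH sample 1 was the lowest for 8 of the 12 largest differences below control. Rpa3, a subunit of replication protein A, was read by 2 probe sets that gave -0.56 (SE 0.16) and -0.53 (SE 0.21), and Pclaf, a partner of the replication clamp, gave -0.54 (SE 0.25). The others were Ndufa1 of respiratory complex I (-0.60), the actin regulator Wasf1 (-0.58), Zc3h15 (-0.56), of which a brighter probe set gave -0.16, the muscle protein Smpx (-0.56), the growth factor binding protein Igfbp2 (-0.55) and the vesicle GTPase Rab6b (-0.55), besides Notum and Lhx9. For 0 of the 12 did all AMH samples lie below every control, as 25 of all probe sets did (0.0914%). For Rpa3, Pclaf, Ndufa1 and Smpx the other treated arrays were near the AMH level or below it. AMH minus the mean of the other 7 growth factors was 0.15 and 0.25 for the probe sets of Rpa3, 0.01 for Pclaf, -0.10 for Ndufa1 and -0.0052 for Smpx. With FGF2 the means of Smpx and Notum were 5.61 and 5.98, below the AMH means of 6.36 and 6.09.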

How the data were processed

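RNA of whole cultured ovaries was measured on Affymetrix Rat Gene 1.0 ST arrays. The authors processed the set of 38 arrays by RMA, adjusted for GC content, with the Partek Genomic Suite. What they deposited is a log2 expression level per probe set and array, taken here without further normalization. The separate CTGF set was not used. In the annotation 15097 probe sets carried 1 symbol, 323 carried several and 11922 had no symbol. Of the symbols 15067 were checked by gene number.

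AMH was compared with controls, with FGF7, with BMP4 and with the mean of the other 7 growth factors in R 4.3.3 with limma 3.58.1 (lmFit, then eBayes), over all 38 arrays. Benjamini-Hochberg adjustment took in all 27342 probe sets (threshold 0.05). For single genes an exact two-sided permutation test used all 680 splits of 3 and 14 arrays. SE is limma's standard error and SD the spread between samples. Replicates are separate wells, so p-values measure only the spread between these wells, and the number of AMH arrays, 3, limits the precision.

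Genes named were the 12 largest differences in each direction with a symbol among those meeting the study criteria, those past the threshold in the fit of AMH and controls alone, AMH pathway genes, and the leading members of the lists. Other genes named were chosen after their values were seen. Of 486 entries in 27 lists 415 were matched, and a gene with several probe sets was read from the brightest. Members, lists and tests were chosen with earlier results of these data known. The steps were tested on simulated data, and start regions were searched and plots drawn with Python 3.11.15 and matplotlib 3.10.9.

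Alternatives were AMH and control arrays alone, an equal-variance t-test (linear or log2 values) and quantile normalization run again. The study's methods name a t-test without its kind. A robust fit with a mean-variance trend, weights for array quality and a replicate block were also used. Other alternatives left out the dimmest 25% of probe sets, each AMH or control sample, controls 12 to 14, or controls 10 and 11. Leaving out controls 10 and 11 was chosen after seeing the data.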

Additional observations from a re-analysis of the deposited data

Results flagged for a closer look

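For some of the leading genes, higher than control in all 3 AMH samples relative to the control mean, every sample of another treatment lay below that mean. The difference in effect between the treatments was not tested. With KITLG the mean difference from controls was -0.31 for Plet1, -0.58 for S100g and -0.20 for Cyp24a1. With FGF2 it was -0.59 for Scgb1c1, -0.25 for Elf3, -0.28 for Padi2 and -0.071 for Slc16a14. With LIF it was -0.73 for Scgb1c1 and -0.17 for Tmprss2.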

How the results depend on the processing

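The number of probe sets at an adjusted p under 0.05 was 0 in the fit over 38 arrays and 10 with AMH and control arrays alone. It was 8 in the equal-variance t-test on linear values. It ran from 0 to 3 when single samples were left out, with 1 without AMH sample 2 and 3 without AMH sample 3, Cldn4 among the latter. The study criteria were met by 588 probe sets, and by 348 and 386 in the equal-variance t-test on log2 and linear values. With linear values 317 were higher and 69 lower, whereas most probe sets of the study's own AMH list were lower. Without single samples 485 to 1172 met the criteria, the highest without AMH sample 3. An unadjusted p under 0.05 was held by 1388, by 876 with AMH and controls alone, by 905 in the t-test on log2 values, by 774 with the replicate block, by 1807 with array weights, by 1904 without AMH sample 3 and by 1991 without control 2. Against the other 7 growth factors the adjusted count ran from 0 to 1, with 1 without AMH sample 2 or 3.

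With the replicate block, AMH and controls 1 to 3, 0 probe sets passed the adjusted threshold and 722 met the criteria. The numbers did not pair AMH samples with controls: deviations from group means correlated at r = 0.05, -0.56 and 0.22 for same-numbered samples. Of the 3 AMH samples 0 correlated best with the control of their own number. The best were control 2 for AMH sample 1 (r = 0.78), control 4 for AMH sample 2 (r = 0.50) and control 6 for AMH sample 3 (r = 0.60). Array quality weights were 0.42, 1.45 and 1.04 for AMH samples 1, 2 and 3. The lowest among controls were 0.19 for control 12 and 0.22 for control 2. What these arrays share was not tested. Pairing by number between treatments was not checked, and 7 of the 8 arrays with a low Amh transcript carried replicate number 1.

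Several small differences turned sign. Amh was 1.41 with the block, 0.23 with array weights, 0.21 without controls 12 to 14 and 0.042 without controls 10 and 11. Amhr2 was -0.026, Bmpr1a -0.0015 and Bmpr2 -0.054 without controls 12 to 14. With weights Bmpr1a was -0.028, Bmpr2 -0.029 and Id1 -0.0074. Bmpr2 was -3e-04 after repeated quantile normalization, and Ddx4 and Smad4 were 0.16 and 0.038 with the block. Without single samples the differences ran from -0.58 to 0.68 for Amh, -0.22 to 0.23 for Amhr2, -0.020 to 0.061 for Bmpr1a, -0.19 to 0.16 for Bmpr2, -0.017 to 0.27 for Id1, -0.26 to 0.028 for Id4, -0.16 to 4e-04 for Smad1, -0.089 to 0.022 for Smad4, -0.28 to 0.020 for Smad6, -0.13 to 0.49 for Adipoq and -0.13 to 0.45 for Foxo1. The cause was not tested. The 3 AMH arrays limit what can be told from the spread between wells.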

Other observations

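The genes named here were chosen after their values were seen. For Tmc4, Lrat, Sema4a, Susd2, Ceacam1 and Eya2 all 3 AMH samples lay above every control. The membrane protein Tmc4 stood at 6.37, 6.12 and 6.11 against 4.86 to 5.89 in controls, a difference of 0.82 (SE 0.24). Lrat, the enzyme that stores retinol as esters, stood at 5.93, 5.0 and 5.12 against 4.28 to 4.90, a difference of 0.77 (SE 0.24). The semaphorin Sema4a differed by 0.74 (SE 0.18), Susd2 by 0.73 (SE 0.21), Ceacam1 by 0.67 (SE 0.17) and the transcription cofactor Eya2 by 0.53 (SE 0.12, adjusted p = 0.265 in limma). Adh1c, an alcohol dehydrogenase, differed by 0.71 (SE 0.18), with its lowest AMH sample at 6.87 against a highest control of 6.88. Pgr, the progesterone receptor, stood at 8.32, 7.85 and 8.31 against 6.07 to 8.13 (median 7.22), with overlap and a difference of 0.89 (SE 0.29, adjusted p = 0.782 in limma). The integrin subunit Itgb6 was at 6.29 in AMH sample 1 and at 4.70 and 4.58 in the others, within the control range of 4.20 to 4.72. Below every control stood Sptssa, a subunit of the enzyme that begins sphingolipid synthesis, at 10.18, 10.02 and 10.10 against 10.22 to 11.11, and the scaffold gephyrin, Gphn, with a difference of -0.32 (SE 0.11).

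The Amh transcript fell into separate ranges over the 38 arrays, with 8 at or below 5.34 and the others at 6.12 or above. Those 8 were 2 controls, AMH sample 1 and an array of 5 other growth factors, and 7 of the 8 carried replicate number 1.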
